A study of Mus musculus with 18 samples.

Results

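Semaphorins, plexins and neuropilins were followed in RNA sequencing of mouse dorsal root ganglia, where the cell bodies of sensory neurons lie next to the spinal cord. The members were the genes whose identifiers map to protein-coding mouse symbols of semaphorin classes 3 to 7, of plexins A, B and D, or of Nrp1 and Nrp2. They were 30 of the 21288 genes counted, with 20 semaphorins, 8 plexins and 2 neuropilins. All 30 passed the filter on low counts.

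The study asked how importin alpha3, a carrier of proteins into the nucleus encoded by Kpna4, bears on neuropathic pain. Knockout mice (KO) lacking importin alpha3 and wild-type mice (WT) were sampled uninjured (naive) and at 7 d and 2.5 months from a spared nerve injury (SNI). SNI cuts branches of the sciatic nerve and leaves another intact. There were 4 naive KO, 4 naive WT, 3 KO and 3 WT libraries at 7 d, and 3 KO libraries and 1 WT library at 2.5 months. Strain, age, sex, the tissue or time of the gene's deletion and a group operated on without nerve injury were not among the label items used here, so effects of surgery and of injury cannot be told apart. The labels do not say which ganglia were taken or whether animals were pooled. The spread behind each p-value is that among libraries, which may be in part technical.

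Semaphorins are guidance proteins that steer growing axons and also act on vessels and immune cells. Secreted class 3 semaphorins mostly bind a neuropilin, which holds the ligand while a plexin A carries the signal into the cell. Membrane-bound semaphorins bind plexins directly, and Sema3e is a secreted ligand that binds Plxnd1 without a neuropilin. Plexins act on small GTPases and the cytoskeleton, and in sensory neurons they set where axons grow, branch and stop.

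Total counts were 18634506 to 21585680 in naive libraries, 12565448 to 14157742 at 7 d and 15501075 to 19283086 at 2.5 months, so depth and time after injury cannot be told apart. Levels are given in CPM, the count scaled to the same effective library size in every library. Kpna4 lay between 1.01 and 5.63 CPM in the libraries labelled KO and between 89.6 and 136 CPM in those labelled WT. Atf3, a gene induced by nerve injury, lay between 226 and 439 CPM in KO at 7 d, against 5.58 to 43.3 CPM in naive KO, with the highest naive value in ko_39. It lay between 214 and 444 CPM in WT at 7 d, against 7.76 to 22.8 CPM in naive WT. Sensory neuron markers were detected in every library, and their sum was lowest, at 7860 CPM, in the naive KO library ko_40. In ko_422_7d, a KO library at 7 d, levels fell by 0.84 on the log2 scale per 10 times exon length, whereas the other 7 d libraries lay between -0.06 and 0.4. These libraries and ko_39 were left out together in a further fit, and the calls lost in it are given below.

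In ganglia without injury the members differed widely in level. Levels between genes were compared as CPM per kilobase of merged exons, over the 8 naive libraries of both genotypes. Sema3b, a secreted ligand, came first at 37.6 ± 10.9 CPM per kilobase (SD, n = 8), followed by Sema7a, which is anchored to the membrane by a lipid, at 33.1 ± 5.05. Plxnd1 followed at 29.6 ± 2.98 and Sema4f, a transmembrane class 4 semaphorin, at 24.2 ± 2.57 CPM per kilobase. The ranges of these 4 members overlapped from one to the next, and the range of Sema4f lay above that of Sema6d, the fifth member, at 11.8 ± 0.832 CPM per kilobase.

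The middle of the naive order ran without a gap. Plxna2 at 10.9 ± 1.68 and Plxna4 at 9.99 ± 1.82 CPM per kilobase were the highest plexin A genes, above Plxna1 at 7.98 ± 0.537 and Plxna3 at 3.67 ± 0.284. Nrp2 held 7.15 ± 0.664 and Nrp1 4.08 ± 0.366 CPM per kilobase. Among the plexin B genes, Plxnb2, a receptor for class 4 semaphorins, held 5.6 ± 0.881 CPM per kilobase, Plxnb3 4.99 ± 1.25 and Plxnb1, the receptor of Sema4d, 2.65 ± 0.633. Each of these values is a level over n = 8 libraries with its SD, and neighbours in this stretch overlapped.

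At the low end stood Sema6b at 1.9 ± 0.194, Sema3d at 1.17 ± 0.186 and Sema5b at 0.997 ± 0.158 CPM per kilobase (SD, n = 8). Sema3a, a repellent of sensory axons that acts through Nrp1, was near absent, with 0.0136 ± 0.0127 CPM per kilobase and 0 to 14 reads in any library of the series. With so few reads, its log2 fold change at 7 d had an SE of 1.2 in KO and 1.08 in WT, and neither was called. Sema6a, a transmembrane ligand of Plxna2 and Plxna4, stood only at rank 23 of 30 before injury, with 2.56 ± 0.57 CPM per kilobase.

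**Figure D1:**
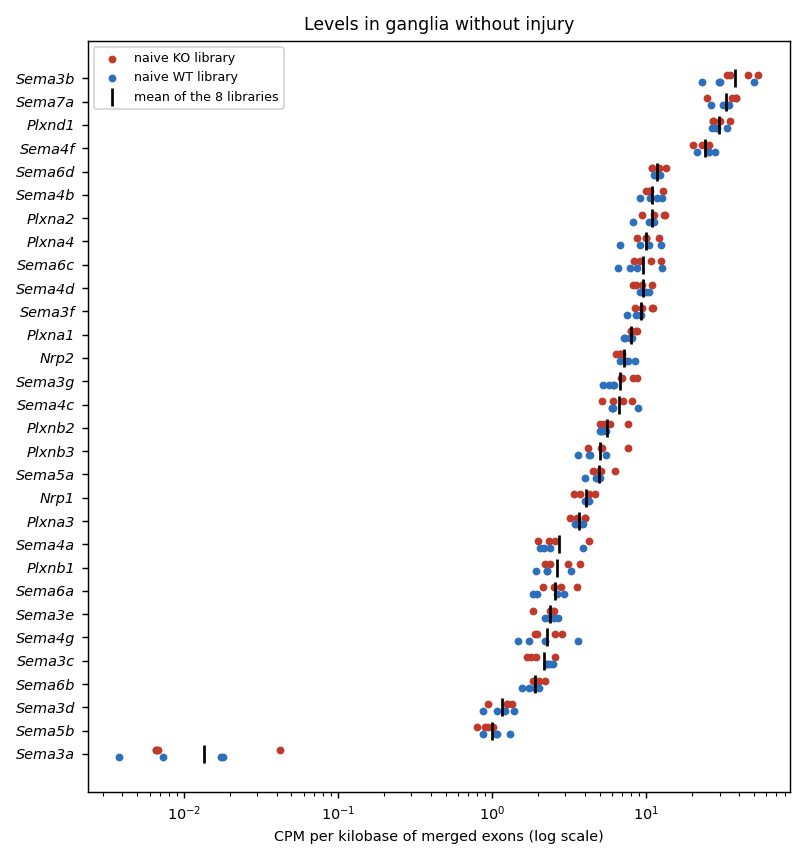
Level of each of the 30 members in the naive libraries, as CPM per kilobase of merged exons on a log axis; points are single KO (red) or WT (blue) libraries and bars are means over the 8 libraries. Sema3b, Sema7a, Plxnd1 and Sema4f stand above the rest, and Sema3a lies far below all others.

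In KO at 7 d against naive KO, 4 members rose and 7 fell. Over all genes tested, 7.61% rose and 5.89% fell, and 13.5% were called in either direction. In WT at 7 d against naive WT, 3 members rose and 0 fell, against 2.5% and 0.673% of all genes and 3.18% in either direction. With the 2 genotypes averaged, 6 members rose and 9 fell at 7 d, against 10.8% and 10.3% of all genes and 21.1% in either direction. The members' median log2 fold change was -0.14 in KO, 0.01 in WT and -0.08 averaged, and the median over all genes tested was 0 in each. For the 20 semaphorins alone the median was -0.35 in KO, -0.25 in WT and -0.4 averaged, with 3 higher and 8 lower averaged over genotypes, or 15% and 40%. For the 8 plexins the medians were -0.03, 0.19 and 0.08, and for the 2 neuropilins -0.1, 0.07 and -0.02. Calls are genes with an adjusted p under 0.05 (edgeR quasi-likelihood test, Benjamini-Hochberg over 19010 genes). The average uses the same libraries as the comparisons within a genotype and is not a separate test of them. Gaps between groups named below come from the same libraries as the calls, so they are not a separate test either. The share of all genes with such gaps was not counted.

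**Figure D2:**
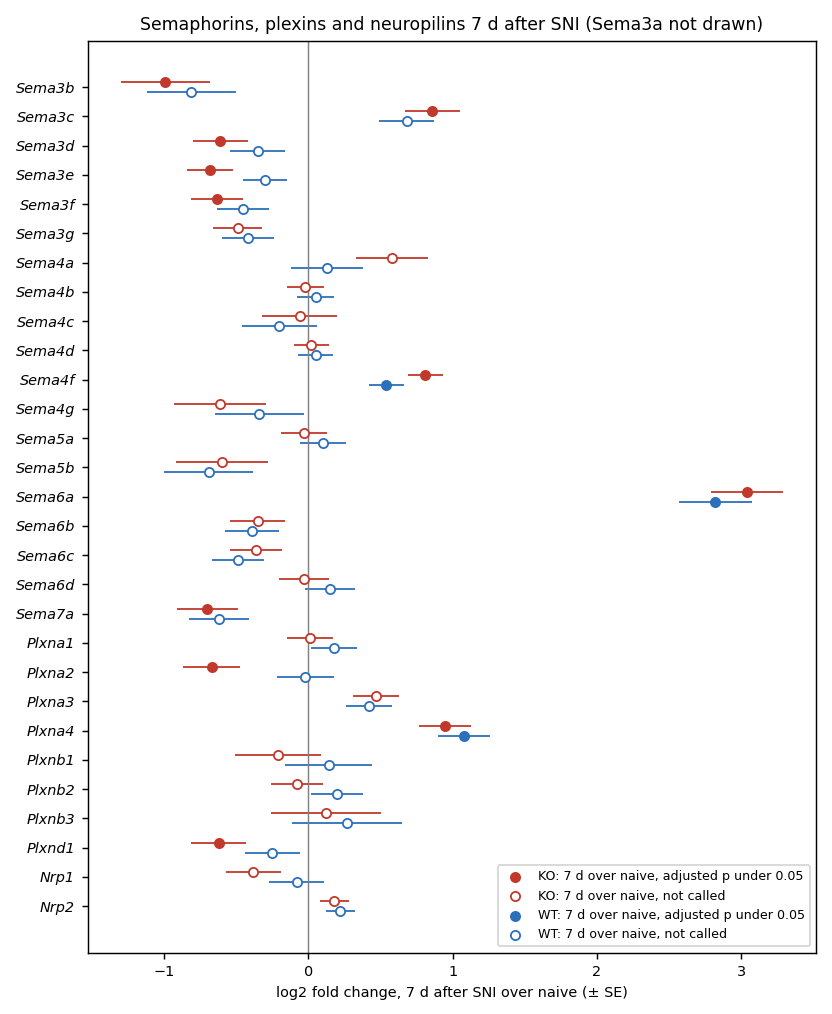
Log2 fold change at 7 d after SNI over naive (± SE) for 29 members, with KO in red above WT in blue and filled points for an adjusted p under 0.05; Sema3a, with 0 to 14 reads per library, is not drawn. Sema6a lies near 3 in both genotypes, Plxna4 and Sema4f are called higher in both, and the filled points on the lower side are all from KO.

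The largest change of any member was the rise of Sema6a. In KO it measured 248, 185 and 164 CPM at 7 d, against 18.7, 31.3, 24.7 and 22.3 CPM in naive libraries. In WT it measured 110, 110 and 218 CPM at 7 d, against 16.3, 23.2, 25.8 and 17.2 CPM in naive libraries. The lowest library at 7 d was above every naive library by a wide margin in both genotypes, and wt_416_7d was the highest of the WT libraries. The log2 fold change was 3.04 ± 0.25 (SE, edgeR adjusted p = 8.07e-06) in KO and 2.82 ± 0.25 (edgeR adjusted p = 1.3e-05) in WT. The gene lies on chromosome 18, minus strand.

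Plxna4, a plexin A that carries class 3 signals with a neuropilin and also binds Sema6a directly, rose in both genotypes. Its level in KO was 360, 226 and 251 CPM at 7 d, against 141, 170, 142 and 124 CPM in naive libraries. In WT it was 249, 293 and 334 CPM at 7 d, against 96.2, 148, 177 and 130 CPM in naive libraries. The groups did not overlap in either genotype, and ko_420__7d was the highest library. Log2 fold changes were 0.95 ± 0.18 (SE, edgeR adjusted p = 0.00286) in KO and 1.08 ± 0.18 (edgeR adjusted p = 0.00256) in WT. Plxna4 is at 32144268 to 32588192 on chromosome 6, minus strand (GRCm38).

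Sema4f held 238, 235 and 175 CPM in KO at 7 d, against 129, 136, 107 and 122 CPM in naive KO. In WT it held 193, 181 and 207 CPM at 7 d, against 113, 135, 149 and 135 CPM in naive WT. All libraries at 7 d were above all naive libraries. Sema4f had a log2 fold change of 0.81 ± 0.12 (SE, edgeR adjusted p = 0.000403) in KO and 0.54 ± 0.12 (edgeR adjusted p = 0.0186) in WT. The WT call was lost without wt_28 (adjusted p = 0.07), wt_67 (0.0525) or wt_416_7d (0.109). Sema4f is at 82911885 to 82939769 on chromosome 6, minus strand.

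Sema3c, a secreted ligand that binds both neuropilins and attracts some axons, was the only class 3 member called higher. In KO it measured 33.4, 24 and 19.7 CPM at 7 d, against 12, 13.7, 18.2 and 12.7 CPM in naive libraries. WT libraries measured 21.1, 24.8 and 34.7 CPM at 7 d, against 16.9, 17.7, 16.3 and 16.1 CPM in naive libraries. The groups did not overlap in either genotype, although the lowest KO library at 7 d and the highest naive KO library lay close together. The log2 fold change was 0.86 ± 0.19 (SE, edgeR adjusted p = 0.00676) in KO and 0.68 ± 0.19 (edgeR adjusted p = 0.057, not called) in WT. In KO the calls of Sema6a, Plxna4, Sema4f and Sema3c held without each of the 18 libraries in turn and under the other 7 settings tried.

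**Figure D3:**
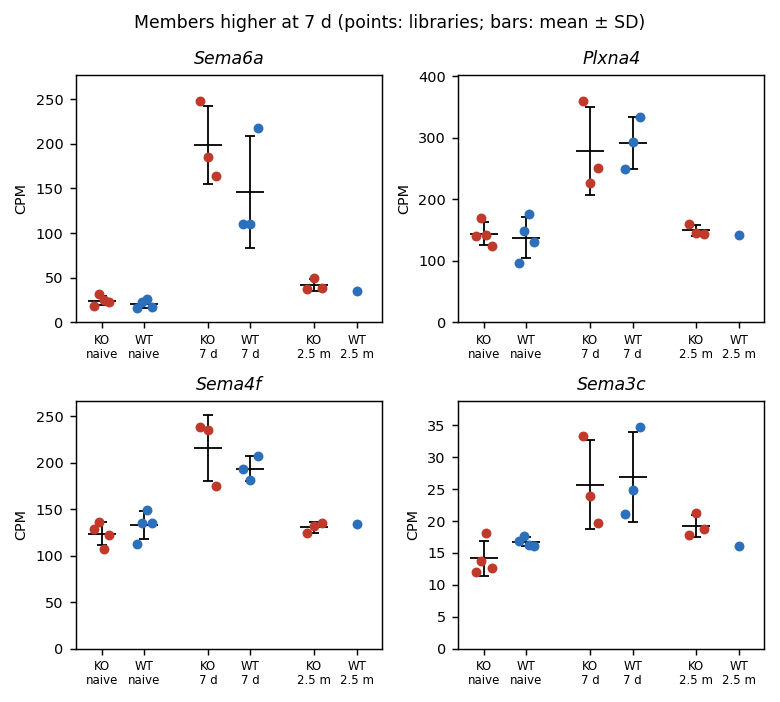
CPM of Sema6a, Plxna4, Sema4f and Sema3c by group, with KO (red) left of WT (blue) at each time (2.5 m is 2.5 months); points are libraries and bars are mean ± SD. In each panel every library at 7 d lies above every naive library of its genotype, and for Sema6a, Plxna4 and Sema4f every library at 2.5 months lies below every library at 7 d. The genes were picked by calls in the same libraries, so these gaps are not a separate test.

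Averaged over genotypes, 2 further receptors were called higher. Plxna3, which carries Sema3f signals with Nrp2, averaged 40.3 ± 10.1 CPM in KO at 7 d (SD, n = 3) and 29.1 ± 3 CPM in naive KO (SD, n = 4). In WT it averaged 38.5 ± 5.98 CPM at 7 d (SD, n = 3) and 28.7 ± 1.59 CPM in naive libraries (SD, n = 4). The averaged log2 fold change was 0.44 ± 0.11 (SE, edgeR adjusted p = 0.00932). Nrp2 averaged 90.4 ± 6.31 CPM in KO at 7 d and 79.8 ± 3.26 CPM in naive KO, and 105 ± 6.31 CPM in WT at 7 d and 89.6 ± 8.27 CPM in naive WT. Its averaged log2 fold change was 0.2 ± 0.07 (SE, edgeR adjusted p = 0.0415). That call ended without any 1 of 10 libraries (ko_35, ko_39, ko_95, wt_28, wt_44, wt_48, ko_420__7d, ko_426_7d, wt_409_7d or wt_416_7d), with an adjusted p of up to 0.0993. It also ended with no filter on low counts (edgeR adjusted p = 0.0565).

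Secreted class 3 ligands made up most of the falls in KO at 7 d. Sema3b, Sema3d, Sema3e and Sema3f were called lower in KO, together with Sema7a and the receptors Plxna2 and Plxnd1. None of these 7 was called in WT, where their log2 fold changes lay between -0.81 and -0.02. The test of the difference between genotypes called 0 of them.

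Sema3e, the ligand of Plxnd1, measured 12.5, 11.2 and 16.4 CPM in KO at 7 d, against 23.4, 22.9, 22.1 and 17.2 CPM in naive KO. In WT it measured 17.6, 21.5 and 16.2 CPM at 7 d, against 24.9, 20.6, 21.8 and 23.3 CPM in naive WT. The KO groups did not overlap, while wt_410_7d lay within the naive WT range. The log2 fold change was -0.68 ± 0.16 (SE, edgeR adjusted p = 0.0095) in KO and -0.3 ± 0.15 (edgeR adjusted p = 0.34) in WT. The KO call held without each of the 18 libraries in turn. It was lost without ko_39, ko_40 and ko_422_7d together (edgeR adjusted p = 0.136) and in the 2 KO groups alone (0.0739). Sema3e lies on chromosome 5 at 14025276 to 14256689, plus strand.

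Plxnd1 itself, best known from vessel guidance, measured 130, 98.2 and 196 CPM in KO at 7 d, against 199, 219, 254 and 197 CPM in naive KO. In WT it measured 146, 226 and 170 CPM at 7 d, against 211, 243, 195 and 208 CPM in naive WT. In KO the groups touched without overlapping, with ko_426_7d next to the lowest naive library, and in WT they overlapped. Plxnd1 had a log2 fold change of -0.62 ± 0.19 (SE, edgeR adjusted p = 0.0406) in KO and -0.25 ± 0.19 (edgeR adjusted p = 0.567) in WT. Plxnd1 is at 115954811 to 115995005 on chromosome 6, minus strand.

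Sema3b, the highest member before injury, held 122, 58.4 and 123 CPM in KO at 7 d, against 160, 167, 220 and 256 CPM in naive KO. In WT it held 68.9, 71.3 and 132 CPM at 7 d, against 238, 141, 110 and 145 CPM in naive WT. The KO groups were apart, with ko_422_7d lowest, and the WT groups overlapped through wt_416_7d. Sema3b had a log2 fold change of -0.99 ± 0.31 (SE, edgeR adjusted p = 0.044) in KO and -0.81 ± 0.31 (edgeR adjusted p = 0.188) in WT.

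Sema3f, which repels axons that carry Nrp2, measured 29.5, 27 and 44.2 CPM in KO at 7 d, against 57.8, 48.5, 44.3 and 57.1 CPM in naive KO. WT libraries measured 38.5, 25.5 and 34.9 CPM at 7 d, against 44.6, 39.1, 47.8 and 48.5 CPM in naive WT. Neither genotype's groups overlapped, but in both the closest pair of libraries almost met. As a log2 fold change the KO difference was -0.63 ± 0.18 (SE, edgeR adjusted p = 0.0269) and the WT difference -0.45 ± 0.18 (edgeR adjusted p = 0.196). Sema3b and Sema3f are neighbours on chromosome 9, at 107597674 to 107609229 and 107681500 to 107710475, both on the minus strand.

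Sema3d, a low secreted ligand, measured 7.57, 5.32 and 7.27 CPM in KO at 7 d, against 10.8, 10.8, 8.08 and 11.5 CPM in naive KO. In WT it measured 8.31, 8.46 and 6.31 CPM at 7 d, against 7.53, 10.5, 9.28 and 12 CPM in naive WT. The KO groups did not overlap and the WT groups did. Log2 fold changes were -0.61 ± 0.19 (SE, edgeR adjusted p = 0.0441) in KO and -0.35 ± 0.19 (edgeR adjusted p = 0.377) in WT.

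Sema7a, which signals through integrins and promotes axon growth, held 71.3, 51.9 and 86.7 CPM in KO at 7 d, against 126, 119, 82.3 and 127 CPM in naive KO. In WT it held 94.8, 49.9 and 60 CPM at 7 d, against 104, 87.4, 114 and 113 CPM in naive WT. The groups overlapped in both genotypes, through ko_40 in naive KO and wt_409_7d in WT at 7 d. Log2 fold changes were -0.7 ± 0.21 (SE, edgeR adjusted p = 0.036) in KO and -0.62 ± 0.21 (edgeR adjusted p = 0.129) in WT.

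Plxna2, a receptor of Sema6a, had the lowest unadjusted p of any member for a difference between genotypes in the response. It measured 142, 91.6 and 147 CPM in KO at 7 d, against 227, 223, 161 and 192 CPM in naive KO. In WT it measured 166, 197 and 153 CPM at 7 d, against 140, 178, 188 and 192 CPM in naive WT. Every KO library at 7 d lay below every naive KO library, and the WT groups overlapped. Plxna2 had a log2 fold change of -0.67 ± 0.2 (SE, edgeR adjusted p = 0.0341) in KO and -0.02 ± 0.2 (edgeR adjusted p = 0.976) in WT. The difference between these changes was -0.65 ± 0.28 on the log2 scale (SE, edgeR unadjusted p = 0.0314, adjusted p = 0.948), so it did not pass the test.

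The calls of the falls within KO depended on the libraries and settings, while all 7 log2 fold changes stayed negative in every fit. Without ko_39, ko_40 and ko_422_7d together, 6 members were called in KO at 7 d, all higher, and 0 of the 7 falls remained called. The 7 log2 fold changes then were -0.77 for Sema3b, -0.69 for Sema7a, -0.65 for Sema3f, -0.59 for Sema3d, -0.55 for Plxna2, -0.49 for Sema3e and -0.28 for Plxnd1, and the adjusted p lay between 0.0737 for Sema3f and 0.43 for Plxnd1. In a fit of the 2 KO groups alone, 4 members were called, all higher, and the falls were between -0.97 and -0.59. The call of Sema3b was also lost with the stricter filter on low counts (adjusted p = 0.0503), the length correction (0.0535) and voom (0.142), and that of Sema3d with voom (0.0598).

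Leaving out 1 library at a time, the KO call of Sema3f was kept in 14 of 18 fits and lost without ko_35, ko_95, ko_420__7d or ko_422_7d (adjusted p up to 0.0995). That of Plxna2 was kept in 14 and lost without ko_35, ko_39, ko_95 or ko_422_7d (up to 0.137). Sema7a kept its call in 13, and lost it without ko_35, ko_39, ko_95, ko_420__7d or ko_422_7d (up to 0.148). The lowest numbers were those of the 3 falls closest to the threshold. Sema3b kept its call in 10 of 18 and lost it without ko_39, ko_40, ko_95, wt_44, wt_67, ko_420__7d, ko_422_7d or ko_362_2_5_m (up to 0.195). Sema3d kept its call in 9 and lost it without ko_35, ko_39, ko_95, wt_44, ko_420__7d, ko_422_7d, wt_409_7d, ko_362_2_5_m or ko_378_2_5_m (up to 0.152). Plxnd1 kept its call in 9 and lost it without any naive KO library, wt_28, wt_67, ko_420__7d, ko_422_7d or ko_378_2_5_m (up to 0.152). Libraries outside the comparison enter through the shared estimate of spread. The count of members called in KO was 6 without ko_35, ko_39, ko_420__7d or ko_422_7d and 5 without ko_95. Averaged over genotypes, Sema3b, Sema3e, Sema3f, Sema3g and Sema7a kept their averaged calls without each of the 18 libraries and under the other 7 settings tried.

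**Figure D4:**
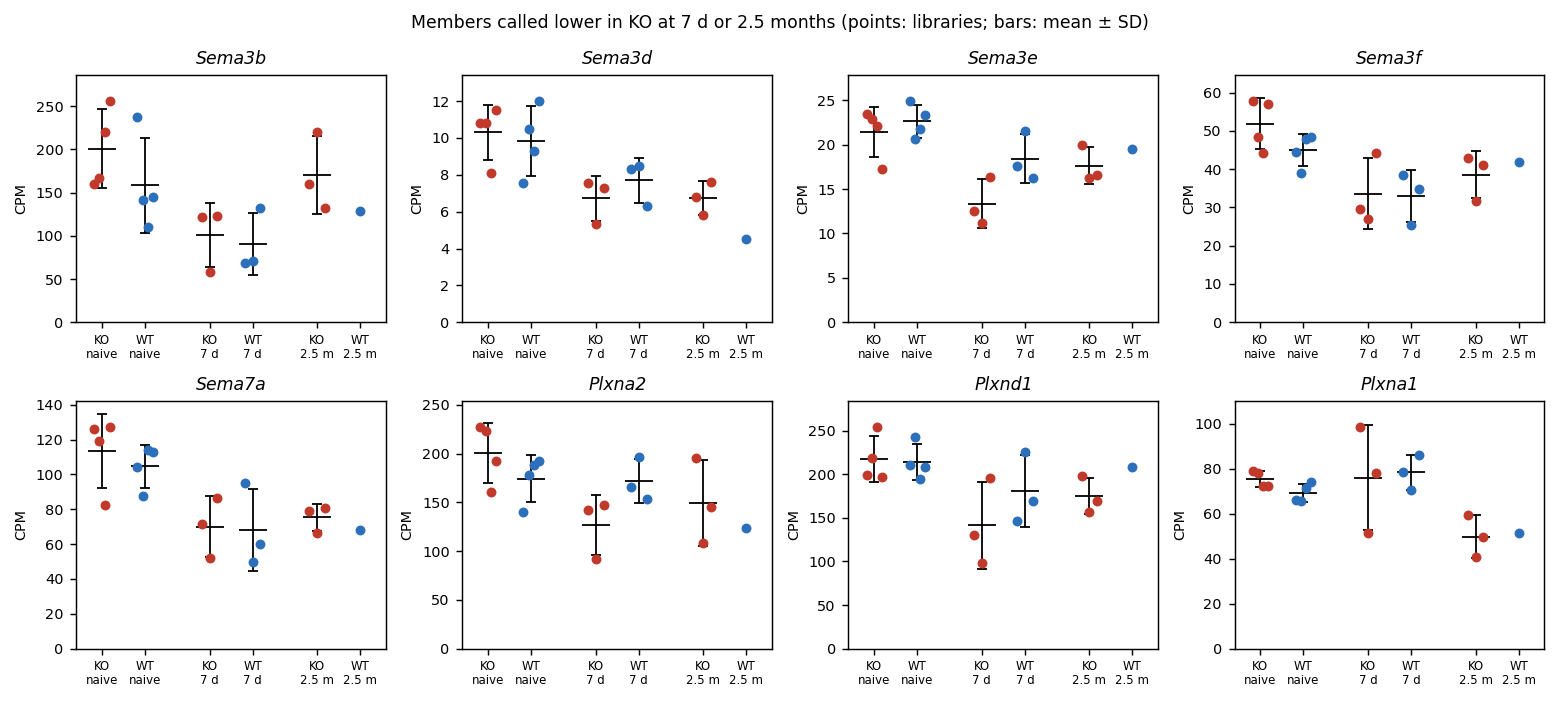
CPM of the 8 members called lower in KO at 7 d or at 2.5 months, by group, with KO (red) left of WT (blue) at each time (2.5 m is 2.5 months); points are libraries and bars are mean ± SD. For Sema3b, Sema3d, Sema3e, Sema3f, Plxna2 and Plxnd1 every KO library at 7 d lies below every naive KO library, and for Plxna1 every KO library at 2.5 months does. The genes were picked by calls in the same libraries, so these gaps are not separate support for the falls.

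The averaged log2 fold changes were -0.9 ± 0.22 for Sema3b (SE, edgeR adjusted p = 0.0084) and -0.66 ± 0.15 for Sema7a (edgeR adjusted p = 0.00502). They were -0.54 ± 0.13 for Sema3f (edgeR adjusted p = 0.00588) and -0.49 ± 0.11 for Sema3e (edgeR adjusted p = 0.00473). Sema3g, a secreted ligand known from vessel walls, averaged 24.7 ± 5.41 CPM in KO at 7 d (SD, n = 3) and 34.9 ± 4.23 CPM in naive KO (SD, n = 4). In WT it averaged 19.9 ± 4.76 CPM at 7 d (SD, n = 3) and 26.6 ± 1.92 CPM in naive libraries (SD, n = 4), and its averaged log2 fold change was -0.46 ± 0.12 (SE, edgeR adjusted p = 0.0143).

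Sema3d, Plxnd1, Sema5b and Sema6c completed the averaged falls. Their averaged log2 fold changes were -0.48 ± 0.14 (SE, edgeR adjusted p = 0.0185) for Sema3d and -0.43 ± 0.13 (edgeR adjusted p = 0.0301) for Plxnd1. Sema5b, a transmembrane semaphorin with thrombospondin repeats, had -0.65 ± 0.22 (edgeR adjusted p = 0.0474), and Sema6c, a transmembrane class 6 semaphorin, had -0.43 ± 0.13 (edgeR adjusted p = 0.025). Without ko_39, ko_40 and ko_422_7d the calls of Plxnd1 (adjusted p = 0.166), Sema5b (0.12) and Sema6c (0.077) ended. The Sema5b call was also lost with the stricter filter on low counts (edgeR adjusted p = 0.0526). That of Sema6c was lost with voom (voom adjusted p = 0.0867). Leaving out 1 library also ended the call of Sema3d without wt_416_7d (adjusted p = 0.0527) and of Sema6c without ko_95 or wt_409_7d (up to 0.054). The Plxnd1 call ended without ko_40, wt_44, ko_420__7d, ko_422_7d, wt_409_7d or wt_416_7d (up to 0.0815). Of Sema5b, 6 of the 18 such fits kept the call, and it ended without any naive library other than wt_44 and without ko_420__7d, ko_422_7d, wt_409_7d, wt_416_7d or ko_378_2_5_m (up to 0.115).

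Among the transmembrane ligands, Sema6a and Sema4f were called higher in both genotypes, and Sema5b and Sema6c were called lower averaged over genotypes. Sema4b, Sema4d, Sema5a and Sema6d had log2 fold changes between -0.03 and 0.15 in both genotypes, with SE of up to 0.17, and none was called. Sema4d, the ligand of Plxnb1, averaged 71.8 ± 9.3 CPM in KO at 7 d and 71.1 ± 9.07 CPM in naive KO, and 78.3 ± 12.2 CPM in WT at 7 d and 75.5 ± 4.35 CPM in naive WT (SD, n = 3 at 7 d and n = 4 naive). Sema4a had 0.58 ± 0.25 in KO and 0.13 ± 0.25 in WT, Sema4c -0.06 ± 0.26 and -0.2 ± 0.26, and Sema4g -0.61 ± 0.32 and -0.34 ± 0.31 (log2 fold change ± SE). Sema6b had -0.35 ± 0.19 in KO and -0.39 ± 0.19 in WT. Averaged over genotypes, Sema6b had -0.37 ± 0.13 (SE, edgeR adjusted p = 0.0591), Sema4g -0.48 ± 0.22 (edgeR adjusted p = 0.139) and Sema4a 0.36 ± 0.18 (edgeR adjusted p = 0.165). None of these was called, which does not show that they did not change.

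The remaining receptors were also not called at 7 d. Plxnb1 had log2 fold changes of -0.21 ± 0.3 in KO and 0.14 ± 0.3 in WT, Plxnb2 -0.08 ± 0.18 and 0.2 ± 0.18, and Plxnb3 0.12 ± 0.38 and 0.27 ± 0.38 (± SE). Nrp1, the receptor of Sema3a and a coreceptor of VEGF, had -0.38 ± 0.19 in KO (edgeR adjusted p = 0.197) and -0.08 ± 0.19 in WT (edgeR adjusted p = 0.883). Exons of Plxna1, Sema4c and Plxnb1 overlap genes on the opposite strand over 10.71%, 7.27% and 2.68% of their length. The strand setting of the counting is not given in the sources used here, so their counts are uncertain to that extent.

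Markers of other cells moved at 7 d as well. Of 6 markers of myelinating Schwann cells, 4 fell in KO and 2 in WT, and 5 fell averaged over genotypes. Their summed level was 2990 to 4230 CPM in KO at 7 d, against 4930 to 9300 CPM in naive KO, and 2430 to 4850 CPM in WT at 7 d, against 3980 to 10900 CPM in naive WT. Of 6 endothelial markers, 2 fell in KO, 0 in WT and 4 averaged, with sums of 72.6 to 86.2 CPM in KO at 7 d and 101 to 136 CPM in naive KO, and 44 to 89.3 CPM in WT at 7 d and 86.9 to 115 CPM in naive WT. Of 10 macrophage markers, 8 rose in KO and 4 in WT, with sums of 157 to 427 CPM in KO at 7 d and 34.9 to 146 CPM in naive KO, and 136 to 294 CPM in WT at 7 d and 39.9 to 91.6 CPM in naive WT. No marker of these 3 lists was at 0 in any library. Of 5 neutrophil markers, 1 fell in KO, 2 in WT and 5 averaged over genotypes. Their sums were 34.1 to 124 CPM in KO at 7 d and 219 to 664 CPM in naive KO. In WT they were 7.47 to 101 CPM at 7 d and 208 to 1000 CPM in naive libraries. Averaged, 3 of 5 mural, 2 of 4 meningeal barrier and 1 of 5 red blood cell markers also fell. In the satellite glia list and in the sensory neuron list, 1 marker rose and 1 fell. Of fibroblast and lymphocyte markers 0 were called. In whole ganglia, fewer cells of a type and less RNA per cell cannot be told apart, and the part of these cells in the changes of the members was not tested.

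A further list of semaphorin signalling genes was counted beside the members. The list held 51 genes (10 coreceptors, 7 other neuropilin ligands and receptors, and 34 effectors), all tested. In KO at 7 d, 9 rose and 2 fell, or 17.6% and 3.92% of the list, against 7.61% and 5.89% of all genes. In WT 4 rose and 0 fell, or 7.84% and 0%, against 2.5% and 0.673% of all genes. The 4 called in both genotypes were Chl1, a cell adhesion coreceptor of class 3 ligands, Trem2, a macrophage receptor linked to Plxna1, Crmp1, a cytoskeletal mediator of Sema3a signals, and Rnd1, a GTPase that binds plexins. Chl1 rose by 2.07 ± 0.22 on the log2 scale in KO (SE, edgeR adjusted p = 2.63e-05) and by 1.66 ± 0.22 in WT (edgeR adjusted p = 0.000397). Rnd1 rose by 1.99 ± 0.29 in KO (edgeR adjusted p = 0.000261) and by 1.29 ± 0.29 in WT (edgeR adjusted p = 0.0196). Crmp1 rose by 0.77 ± 0.11 and 0.62 ± 0.11, and Trem2, also 1 of the 10 macrophage markers, by 2.42 ± 0.33 and 1.52 ± 0.35, in KO and in WT. Both falls in KO were VEGF receptors, Kdr at -1.29 ± 0.3 (edgeR adjusted p = 0.0106) and Flt4 at -1.13 ± 0.35 (edgeR adjusted p = 0.0411). Of the 7 other neuropilin ligands and receptors, 0 were called in WT. Their median log2 fold change was -0.91 in KO and -0.4 in WT, and the test of the difference between genotypes called 0. Calls of the 51 genes were not refitted under other settings.

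Promoter windows, the 250 bases before and 50 bases after a gene's start, were read from RefSeq (GRCm38.p6) to see whether members that moved share the letters of motifs bound by AP-1 and CREB factors. Of the members, 25 had windows, 36 in all, and Plxna1, Plxna4, Sema3b, Sema3f and Sema6a had none. The AP-1 motif TGANTCA, searched on both strands, was in 3 of the 36 windows, or 8.33%, and in 7.81% of 32851 windows of all genes. The CRE motif TGACGTCA was in 0 of the 36 windows and in 1.79% of all windows. The 3 members with TGANTCA were Sema4c, Sema4d and Sema6b, none of which was called at 7 d. The narrower TGAGTCA, on either strand, was in 2 of the 36 windows, or 5.56%, and in 5.2% of all windows. Sema4c and Sema6b held it and Sema4d did not. Their matches are printed 5′ to 3′ with the motif in capitals.
Sema4c (chr1:36558382-36558433, minus strand): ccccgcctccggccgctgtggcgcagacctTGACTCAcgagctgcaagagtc
Sema4d (chr13:51749013-51749060, minus strand): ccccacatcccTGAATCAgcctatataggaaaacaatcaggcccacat
Sema6b (chr17:56133864-56133930, minus strand): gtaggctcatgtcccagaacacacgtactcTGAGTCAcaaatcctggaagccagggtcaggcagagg
Of the 4 members called higher in KO at 7 d, Sema6a and Plxna4 had no window to read. The window of Sema3c held 0 matches to either motif. For Sema4f, called higher in both genotypes, the 100 bases before the start are shown for comparison. They hold 52% G and C, and its window held 0 matches to either motif.
Sema4f (chr6:82939770-82939869, minus strand): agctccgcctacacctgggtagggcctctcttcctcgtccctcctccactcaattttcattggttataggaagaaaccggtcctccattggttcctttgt
A match is a run of letters, not a shown binding site.

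By 2.5 months most of the changes seen at 7 d were no longer called in KO. Against naive KO, 1 member rose and 2 fell, or 3.33% and 6.67% of the members. Of all genes 11.6% were called, 6.99% higher and 4.57% lower. With 10% of the members called in either direction, this count does not set them apart from other genes. The comparisons at 7 d and at 2.5 months share the naive KO libraries. Sema6a measured 37.2, 49.5 and 38.6 CPM in KO at 2.5 months and 34.8 CPM in the single WT library, above the naive ranges of 18.7 to 31.3 CPM in KO and 16.3 to 25.8 CPM in WT. Its log2 fold change in KO was 0.78 ± 0.24 (SE, edgeR adjusted p = 0.0466). That call ended in 10 of the 18 fits without 1 library, with an adjusted p of up to 0.197. The 10 were the fits without a naive KO library, wt_44, wt_48, wt_67 or a KO library at 2.5 months. The call was also lost without ko_39, ko_40 and ko_422_7d together (1.02, edgeR adjusted p = 0.0513). With no filter on low counts it was lost as well (0.78, edgeR adjusted p = 0.0515).

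A call lost at 2.5 months does not show a return to the naive level. Sema7a measured 79.2, 66.3 and 80.5 CPM in KO at 2.5 months and Sema3f 42.9, 31.7 and 41.2 CPM, all below every naive KO library of the same gene. Their log2 fold changes over naive KO were -0.59 ± 0.21 (SE, edgeR adjusted p = 0.0671) for Sema7a and -0.43 ± 0.18 (edgeR adjusted p = 0.103) for Sema3f. Those of Plxna2, Plxnd1, Sema3e and Sema3b were -0.42 ± 0.2, -0.31 ± 0.19, -0.28 ± 0.15 and -0.24 ± 0.3 (± SE), with edgeR adjusted p of 0.145 to 0.619. Plxna4 had 0.05 ± 0.18 and Sema4f 0.08 ± 0.12 (edgeR adjusted p = 0.872 and 0.701).

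Against KO at 7 d, 6 members were lower and 0 higher in KO at 2.5 months, where 6.48% of all genes were called, 2.14% higher and 4.33% lower. Sema6a fell by 2.25 ± 0.27 on the log2 scale (SE, edgeR adjusted p = 0.000269), a call kept without each of the 18 libraries in turn. Sema4f measured 124, 132 and 135 CPM at 2.5 months and fell by 0.73 ± 0.13 (edgeR adjusted p = 0.00341). Plxna4 measured 160, 145 and 143 CPM at 2.5 months and fell by 0.9 ± 0.2 (edgeR adjusted p = 0.0129), a call lost without ko_420__7d, ko_367_2_5_m or ko_378_2_5_m (adjusted p up to 0.0952). All 3 libraries at 2.5 months lay below all 3 at 7 d for each of these genes.

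Plxna3, Plxna1 and Sema4a were the other 3 lower members in that comparison. Plxna3 had -0.67 ± 0.17 (SE, edgeR adjusted p = 0.0275), Plxna1 -0.61 ± 0.18 (edgeR adjusted p = 0.0475) and Sema4a -0.94 ± 0.27 (edgeR adjusted p = 0.0465). Leaving out 1 library at a time, the Plxna1 call was kept in 4 of 18 fits, namely those without ko_422_7d, wt_416_7d, ko_362_2_5_m or the single WT library at 2.5 months, and its adjusted p was up to 0.278. The Sema4a call was kept in 6, and lost without ko_39, ko_95, wt_28, wt_48, wt_67, ko_420__7d, ko_426_7d, wt_409_7d, wt_410_7d or any KO library at 2.5 months (up to 0.161). The Plxna3 call was kept in 14, and lost without ko_420__7d, ko_426_7d, ko_367_2_5_m or ko_378_2_5_m (up to 0.126). With the length correction Plxna1 had -0.42 (adjusted p = 0.059) and Sema4a -0.86 (0.0539), neither called, and the Plxna1 call was also lost with no filter on low counts (0.0541). In a fit of the 2 groups alone 1 call remained, that of Sema6a, and without ko_39, ko_40 and ko_422_7d 11 members were called lower. The count was 2 without ko_420__7d, ko_367_2_5_m or ko_378_2_5_m, 3 without ko_426_7d and 10 without ko_422_7d. Sema3c measured 17.8, 21.2 and 18.7 CPM at 2.5 months, between the 7 d and naive means, and was not called against either.

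The falls at 2.5 months were Plxna1 and Sema3d. Plxna1, a plexin A that also serves Sema6d, measured 59.4, 40.5 and 49.4 CPM in KO at 2.5 months, against 78.7, 78, 72.2 and 72.4 CPM in naive KO. Levels at 7 d were 98.3, 51.5 and 78.1 CPM in KO and 78.4, 70.6 and 86.1 CPM in WT, and naive WT held 65.9, 65.4, 71.5 and 73.8 CPM. All KO libraries at 2.5 months were below all naive KO libraries, and of the 7 d libraries only ko_422_7d lay within the range of KO at 2.5 months. The log2 fold change at 2.5 months was -0.6 ± 0.17 (SE, edgeR adjusted p = 0.0317), a call lost without ko_35, ko_39, ko_367_2_5_m or ko_378_2_5_m (up to 0.161).

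Sema3d measured 6.82, 5.81 and 7.62 CPM in KO at 2.5 months, all below the naive KO range, with a log2 fold change of -0.61 ± 0.19 (SE, edgeR adjusted p = 0.0482). Its adjusted p was up to 0.197 without 1 library, and 7 of the 18 such fits kept the call. The call was lost without ko_35, ko_39, ko_95, wt_44, wt_48, wt_67, wt_409_7d, wt_410_7d or any KO library at 2.5 months. The count of members called at 2.5 months in KO was 0 without ko_35, ko_39, ko_367_2_5_m or ko_378_2_5_m, 1 without ko_95, wt_44, wt_48 or wt_67, and 7 without ko_422_7d.

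Levels at 2.5 months trended with exon length, and what sets this trend was not tested. A correction for the trend could also remove changes shared by long genes. Relative to each gene's mean over the 18 libraries, levels at 2.5 months fell by 0.39 to 0.86 on the log2 scale per 10 times exon length. On the same measure naive libraries had slopes of 0.03 to 0.3. Members are long, with a median of 7699.5 bases of merged exons against 3833 for all genes tested. With a length correction, the members' median log2 fold change in KO at 2.5 months was -0.04 instead of -0.23. Plxna1 then had -0.35 (edgeR adjusted p = 0.0881) and Sema3d -0.36 (0.2), and neither was called. Sema6a had 1.04 (0.0231) and Sema3c 0.65 (0.0418), and both were called.

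**Figure D5:**
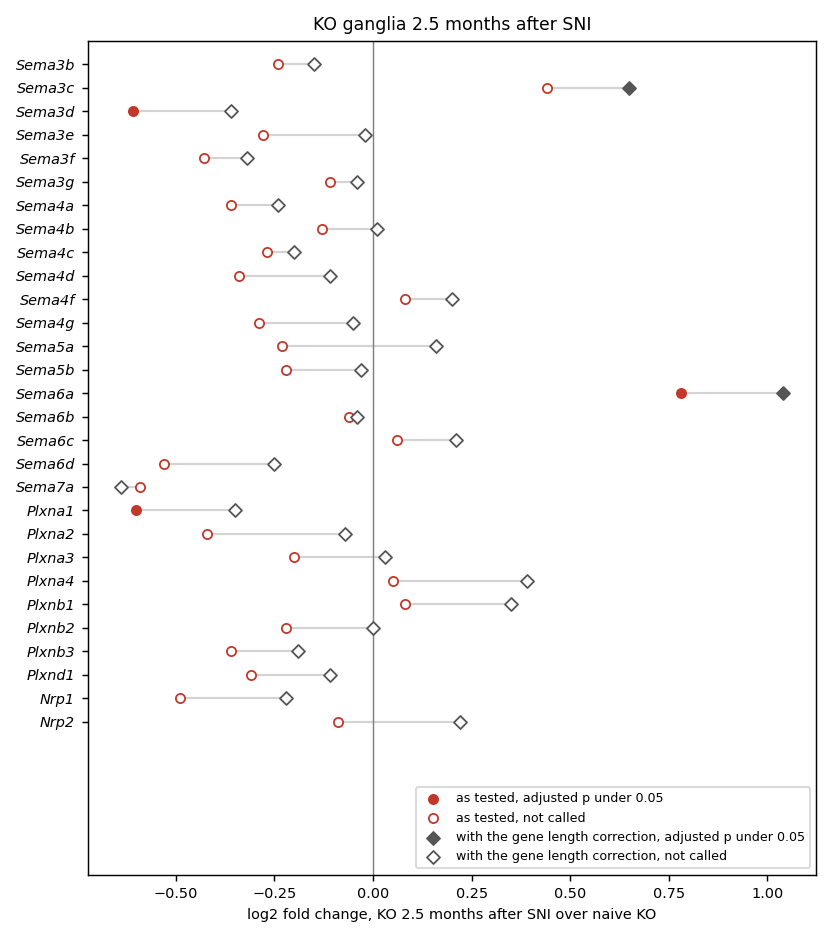
Log2 fold change of 29 members in KO ganglia at 2.5 months over naive KO, as tested (red circles) and with a correction for exon length (grey diamonds), filled where the adjusted p is under 0.05; Sema3a, with 0 to 14 reads per library, is not drawn. All of them but Sema7a move to the right with the correction, Plxna1 and Sema3d lose their call, and Sema6a and Sema3c are called with the correction.

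The single WT library at 2.5 months is assumed to vary like the libraries of the other groups, and its count of calls ran between 0 and 11 across the settings tried. It gave 0 rises and 2 falls against naive WT, where 13% of all genes were called, 8.71% higher and 4.3% lower. Nrp2 held 61.6 CPM there, against 80.4, 88, 89.7 and 100 CPM in naive WT, with a log2 fold change of -0.54 ± 0.15 (SE, edgeR adjusted p = 0.0237). Sema3d held 4.54 CPM and had -1.11 ± 0.31 (edgeR adjusted p = 0.0263). Both were lost without wt_67 (0.0518 and 0.0537), and 0 members were called with the length correction. Sema6a had 0.75 ± 0.35 (edgeR adjusted p = 0.155), and Sema4f and Plxna4, at 134 and 142 CPM, lay within the naive WT range.

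No member differed between KO and WT past the threshold. The edgeR test called 0 of the 30 members in naive KO against naive WT, in KO against WT at 7 d, in KO against WT averaged over both, and for the difference between genotypes in the response at 7 d. Over all genes these comparisons called 0.0263%, 0.00526%, 0.0421% and 0.0105%. At these shares, 0 of 30 does not set the members apart from other genes. At an unadjusted p under 0.05 they held 1, 2, 3 and 1 members, against 2.71%, 8.44%, 7.25% and 3.7% of all genes, and DESeq2 also called 0 in each. No member was called in any of these comparisons without any 1 library or under the other settings tried.

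Sema3g was the member with the lowest unadjusted p for genotype, at 0.00972 averaged over naive and 7 d. It measured 31.1, 31.5, 37.3 and 39.6 CPM in naive KO, all above 27.8, 24, 28.3 and 26.2 CPM in naive WT. At 7 d it measured 27.9, 18.5 and 27.8 CPM in KO and 18.7, 15.8 and 25.1 CPM in WT, with overlap. The averaged log2 fold change of KO over WT was 0.36 ± 0.12 (SE, edgeR adjusted p = 0.547). Nrp2 had -0.19 ± 0.07 (edgeR adjusted p = 0.573) and Sema3e -0.27 ± 0.11 (edgeR adjusted p = 0.613) in the same comparison.

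Sema6a, the member that rose most, had a log2 difference of KO over WT of 0.45 ± 0.26 at 7 d (SE, edgeR adjusted p = 0.622) and 0.23 ± 0.23 in naive ganglia (edgeR adjusted p = 1). Between KO and WT its response at 7 d differed by a log2 value of 0.21 ± 0.34 (SE, edgeR adjusted p = 0.955). For Plxna4 the same difference was -0.13 ± 0.26, for Sema4f 0.26 ± 0.17 and for Sema3c 0.18 ± 0.27. The edgeR adjusted p of each was at least 0.948, which does not show that the genotypes respond alike.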

How the data were processed

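The authors deposited whole-number read counts per gene for 18 libraries; a deposited table of normalized values was not used here. STAR 2.4.2a0, HTSeq 0.6.1p1, DESeq2 1.10.1, bcl2fastq 2.17.1.14 and cutadapt are named with the build GRCm38, per the submitters' processing notes, and the libraries were polyA-based, per the labels' protocols. Neither the annotation release nor how strand was handled is given in the sources used here. Symbols and exon lengths came from GENCODE M21.

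Counts were tested with edgeR 4.0.16 in R 4.3.3: filterByExpr with the groups (a minimum count of 10 and total of 15), TMM scaling, 1 mean for each of 6 groups, 12 residual degrees of freedom, the robust quasi-likelihood F test and Benjamini-Hochberg adjustment over 19010 genes. The SE is the size of the log2 fold change over the square root of F. Alternatives were DESeq2 1.42.0, 2 other filters, the compared groups alone and limma 3.58.1 voom with sample weights. Others were a length correction, leaving out 3 libraries together, and leaving out each library. The length correction was an offset per library from a smooth trend on exon length of levels relative to each gene's mean.

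Values in every library are given for members called in KO or WT at 7 d or in KO at 2.5 months, and every member is named; pathway genes are named where called in both genotypes at 7 d, and Kdr and Flt4 after their values were seen. Members, lists and tests were chosen with earlier results of these data known. Library numbers are not shared between groups, so no libraries were paired.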

Additional observations from a re-analysis of the deposited data

Results flagged for a closer look

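In 2 of 60 groups of 4 libraries checked, 1 library stood far from the other 3, and chance flags about 1 in 20 groups. Sema4c held 40.8 CPM in the naive WT library wt_28 and 27.6 to 28 CPM in the other naive WT libraries, a gap of 0.97 of the group's range. Sema3a held 0.585 CPM, or 11 reads, in the naive KO library ko_40 and 0.0915 to 0.0945 CPM, or 2 reads each, in the other naive KO libraries, a gap of 0.994 of the range. The library ko_40 also had the lowest summed level of sensory neuron markers, 7860 CPM. Among naive KO libraries it had the highest sum of satellite glia markers, 1070 CPM. The same held for its sums of macrophage, mural, fibroblast, neutrophil and red blood cell markers, so satellite glia did not stand out. Sums of myelinating Schwann cell, meningeal barrier and lymphocyte markers were highest in ko_95, and endothelial sums were level in ko_40 and ko_95. The part of any of these cells in the Sema3a value was not tested.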

How the results depend on the processing

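No paired analysis was possible because library numbers are not shared between groups. Of 998 refits of called members, 826 kept the call, 172 lost it and 0 reversed its sign. Counts of members called that left 1.5 times the value reported were as follows. In KO at 7 d (11), 6 were called without ko_39, ko_40 and ko_422_7d and 4 in the compared groups alone. In WT at 7 d (3), 5 were called with voom. In KO at 2.5 months against naive KO (3), 1 was called with no filter, 7 in the compared groups alone, 12 with voom and 6 with DESeq2. Against KO at 7 d (6), 11 were called without those 3 libraries, 1 in the compared groups alone and 10 with voom. For the single WT library at 2.5 months (2), 0 were called with the length correction, 7 without those 3 libraries, 11 in the compared groups alone, 7 with voom and 5 with DESeq2. Leaving out each library in turn gave 5 to 13 calls in KO at 7 d, 2 to 5 in WT (5 without ko_422_7d or wt_409_7d), 11 to 15 averaged over genotypes, and 0 to 0 in the 4 genotype comparisons. It gave 0 to 7 in KO at 2.5 months against naive KO, 2 to 10 against KO at 7 d, and 0 to 7 for the single WT library (0 without wt_67, 4 without ko_426_7d or wt_410_7d, 7 without ko_422_7d). The compared groups alone hold fewer libraries, and what moved any of these counts was not tested. Low counts limit Sema3a, with at most 14 reads in a library.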

Other observations

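Across the 8 naive libraries, some members varied with the summed level of 6 myelinating Schwann cell markers. This relation was looked at after the values were seen, for 29 members, with exact permutation tests. Adjusted over the 29, 5 members passed on Pearson's r, 4 with a positive and 1 with a negative sign. Sema6c had r = 0.96 (exact permutation p = 0.000719, adjusted p = 0.0133) and Spearman's rho = 0.95 (p = 0.00114, adjusted p = 0.0331). Sema4g had r = 0.93 (exact permutation p = 0.000918, adjusted 0.0133) and rho = 0.83 (p = 0.0154, adjusted 0.126). Sema3b had r = 0.93 (exact permutation p = 0.00265, adjusted 0.017) and rho = 0.81 (p = 0.0218, adjusted 0.126). Sema4c had r = 0.88 (exact permutation p = 0.00293, adjusted 0.017) and rho = 0.8 (p = 0.0204, adjusted 0.126). Sema4f ran the other way, with r = -0.89 (exact permutation p = 0.00273, adjusted 0.017) and rho = -0.74 (p = 0.0416, adjusted 0.172). Without the 2 libraries farthest from the median of the marker sum, r was 0.93 for Sema6c, 0.84 for Sema4g, 0.89 for Sema3b, 0.7 for Sema4c and -0.91 for Sema4f. With both measures centred on the mean of their genotype, r was 0.97 for Sema6c, 0.93 for Sema4g, 0.98 for Sema3b, 0.91 for Sema4c and -0.9 for Sema4f, an alternative added after the values were seen. The exact permutation p within genotype was 0.00174 for Sema6c, the smallest that the 576 permutations can give, and 0.00521 to 0.0208 for the other 4 members. Adjusted over the 29 it was 0.0503 to 0.101, and 0 members passed. A lone member at the smallest possible p is adjusted to 0.0503 and cannot pass, so no conclusion is drawn from this. Sema6a had r = -0.28 (exact permutation p = 0.499). CPM values of a library share its total, and what sets these relations was not tested.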
